A study of Mus musculus with 11 samples.

Results

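The 10 genes described here mark hepatocytes around the central vein or respond to Wnt signals there, and they were followed in livers of Gsr-null and wild-type (WT) mice. They are Rhbg, Glul, Oat, Slc1a2, Gulo, Lect2, Axin2, Lgr5, Tbx3 and Rnf43, and every probe set that the platform annotation gives to exactly 1 of these symbols was taken, which gave 13 of 22690 probe sets. The members are 10 of the 12393 genes that the array names by a single symbol. Liver RNA was measured on Affymetrix mouse arrays in 6 Gsr-null and 5 WT males of the C57BL/6J strain. The mice were 15 to 20 weeks old and their livers were collected from 2 to 4 in the afternoon. Gsr encodes glutathione reductase, which uses NADPH to bring oxidised glutathione back to its reduced form. The labels name no other allele and no treatment, and the sources used here do not say how Gsr was disrupted. The labels call the samples biological replicates, and the p-values measure only the spread between these samples.

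In the liver lobule, blood flows past the hepatocytes from the portal tracts to the central vein, and hepatocytes along this path divide their work. Portal hepatocytes turn most of the ammonia into urea, and the last cells before the central vein take up what remains and fix it as glutamine. Endothelial cells of the central vein release Wnt ligands and R-spondins, which stabilise beta-catenin in the neighbouring hepatocytes and so maintain the pericentral programme.

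Of the 10 genes 7 were tested, and Rhbg alone passed the test for a difference between the genotypes. Its level in Gsr-null livers was 2.63-fold that in WT livers, and no Gsr-null sample overlapped a WT sample. The glutamine synthetase Glul, the ornithine aminotransferase Oat, the vitamin C enzyme Gulo, the secreted protein Lect2, the transcription factor Tbx3 and the ubiquitin ligase Rnf43 did not pass the test. Slc1a2, Axin2 and Lgr5 did not pass the filter on low values and were not tested. All 13 probe sets are accounted for: 8 of them, from 7 genes, exceeded 4 on the log2 scale in 5 or more samples and were tested with limma together with all 9560 probe sets that met this filter. A call is a limma p-value under 0.05 after Benjamini-Hochberg adjustment over the 9560. By that rule 1 member probe set was called higher, against 0.167% of all tested probe sets, and 0 were called lower, against 0.22%. The difference had a positive sign in 7 of the 8, 2 of the 8 had an unadjusted p under 0.05, and over all tested probe sets 8.36% did. By gene, 1 of 7 tested members was called higher and 0 lower, and the share of all 6022 tested genes was 0.216% called higher and 0.216% called lower. The median difference of the 7 tested members was 0.17 on the log2 scale, and that of all tested genes was -0.032. The members were chosen with earlier results of these data known. The member counts and median beside these shares are therefore a description and no test of the members as a group. In whole liver, fewer cells of a type and less RNA per cell cannot be told apart.

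**Figure D1:**
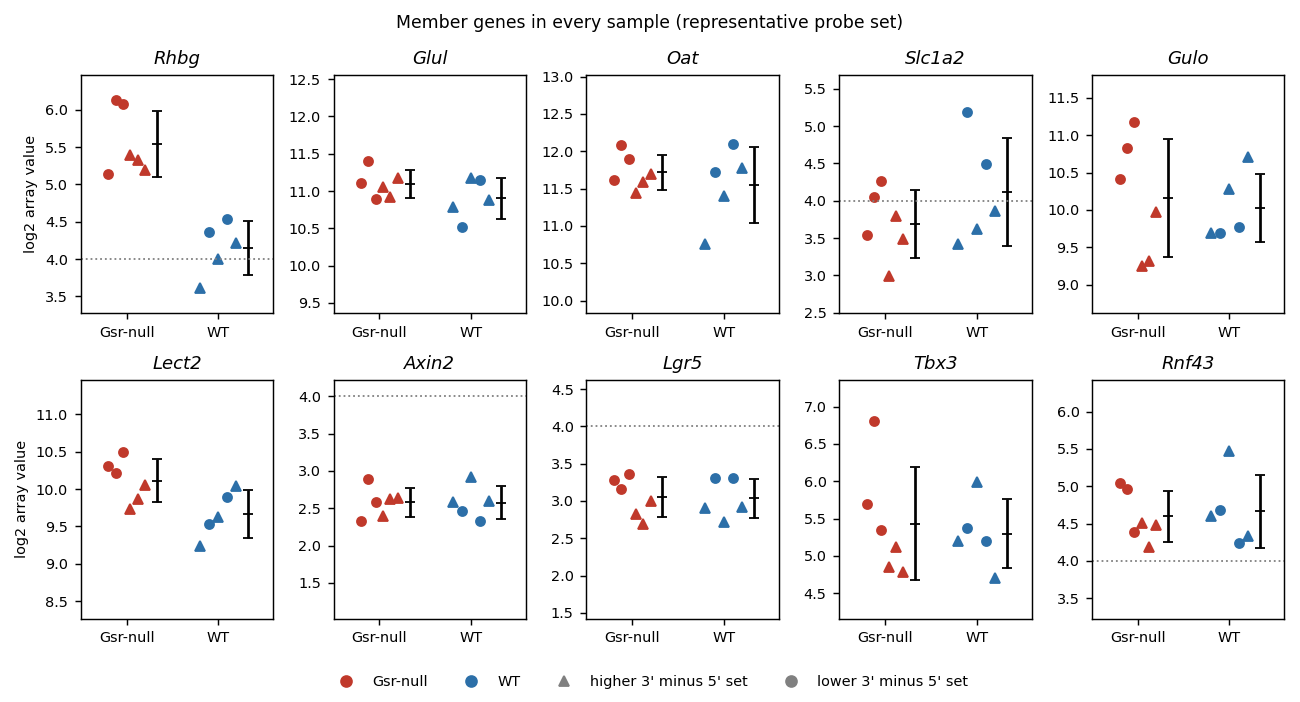
Log2 array value of each of the 10 genes (vertical axis, 1 panel per gene, its representative probe set) in every Gsr-null sample (left) and WT sample (right), with the group mean and SD as bars and the filter level of 4 as a dotted line; triangles and circles mark samples with a higher and a lower 3' minus 5' difference of the control probe sets. Rhbg is the gene whose 6 Gsr-null values all lie above its 5 WT values.

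The arrays were checked before the members were compared. The disrupted gene, Gsr, averaged 4.99 ± 0.207 (SD, n = 6) in Gsr-null and 6.82 ± 0.126 (SD, n = 5) in WT livers, a log2 difference of -1.83 (limma adjusted p = 1.82e-05). Control probe sets at the 3' and 5' ends of Gapdh and Actb report on RNA integrity and labelling, and their 3' minus 5' difference divided the samples into a higher set of 6 (Gsr-null 4, 5 and 6, WT 1, 3 and 5, at 1.20 to 1.75) and a lower set of 5 (Gsr-null 1, 2 and 3, WT 2 and 4, at 0.544 to 0.703). Its genotype difference was -0.21 (exact two-sided permutation p = 0.448). The floor, read as the 5th percentile of an array, stood at 1.79 and 1.76 in Gsr-null 2 and 3, against 1.53 to 1.62 on the other arrays. Hepatocyte markers such as albumin were abundant, with a mean log2 level of 13.1 to 13.5 in Gsr-null and 12.9 to 13.4 in WT samples.

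Rhbg encodes an ammonium transporter of the Rhesus glycoprotein family, which in mouse liver sits in the basolateral membrane of the hepatocytes next to the central vein. Its probe set, from a gene on chromosome 3, had log2 values of 5.13, 6.13, 6.08, 5.39, 5.33 and 5.20 in Gsr-null 1 to 6, against 3.61, 4.36, 4.00, 4.54 and 4.22 in WT 1 to 5. Gsr-null 2 and 3 were the highest, the other Gsr-null samples lay close together below them, and the lowest Gsr-null value was above the highest WT value. Such a lack of overlap was seen in 1 of the 8 tested member probe sets and in 1.36% of all tested probe sets. Here too the members were chosen with earlier results known, so the comparison is a description. The means were 5.54 ± 0.446 (SD, n = 6) in Gsr-null and 4.15 ± 0.358 (SD, n = 5) in WT livers. The log2 difference was 1.40 (SE 0.229, 95% interval 0.90 to 1.89, limma adjusted p = 0.0252), or a fold of 2.63 with an interval of 1.87 to 3.72, and it ranked 19 of 9560 by p. Rhbg was above 4 in 9 of 11 samples, 3 of them WT, so its WT level lay near the filter. Without any filter, the adjusted p was 0.0323.

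The Rhbg difference had nearly the same size in both sets of arrays. It was 1.36 (SE 0.260) in the higher set and 1.33 (SE 0.290) in the lower set. The interaction of genotype and set, higher minus lower, was 0.028 in log2 units (SE 0.390, limma adjusted p = 0.987). With the set as a block the difference was 1.35 (SE 0.186, limma adjusted p = 0.00891). The call was less secure than the direction: it was lost on leaving out Gsr-null 3, WT 1, WT 2, WT 3 or WT 5, where the log2 difference lay at 1.26 to 1.45 and the adjusted p at 0.0502 to 0.0788. Without Gsr-null 2 and 3 together, the arrays with the raised floor and the highest Rhbg values, the difference was 1.12 (limma adjusted p = 0.0585). The other Rhesus ammonium transporters were near the floor, Rhag at 1.85 in Gsr-null and 1.64 in WT livers and Rhcg at 2.01 in Gsr-null and 2.00 in WT livers.

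**Figure D2:**
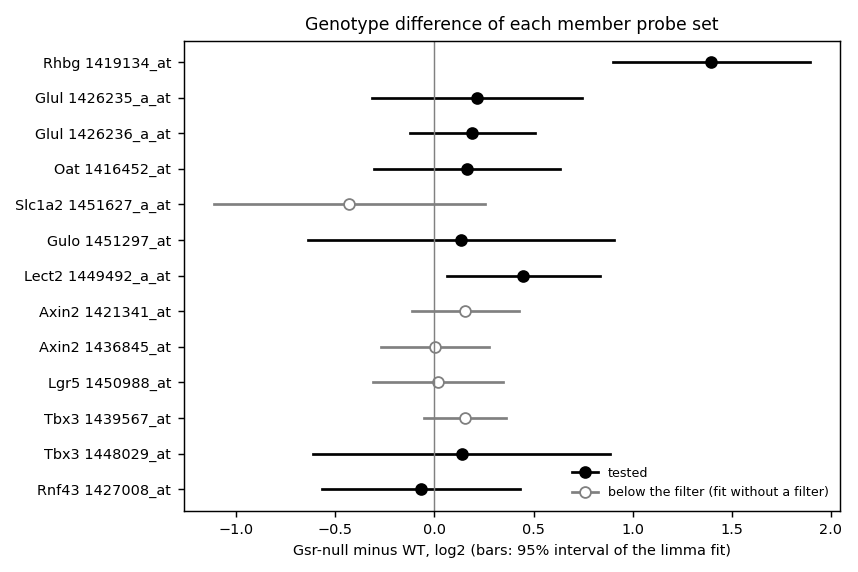
Gsr-null minus WT difference of each of the 13 member probe sets (horizontal axis, log2), with the 95% interval of the limma fit as bars; filled points were tested, and open points lay below the filter and come from the fit without a filter. The intervals of Rhbg, 0.90 to 1.89, and Lect2, 0.061 to 0.83, lie above 0, and the other 11 contain 0.

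Glul encodes glutamine synthetase, which joins ammonia to glutamate and is confined to the innermost pericentral hepatocytes. Its representative probe set had log2 values of 11.11, 11.40, 10.89, 11.05, 10.92 and 11.17 in Gsr-null 1 to 6, against 10.79, 10.52, 11.17, 11.15 and 10.88 in WT 1 to 5. The groups overlapped, with Gsr-null 2 the highest and WT 2 the lowest. The log2 difference was 0.19 (SE 0.145, 95% interval -0.13 to 0.51, limma adjusted p = 0.867). The second Glul probe set ran from 8.39 to 9.67 with a median of 8.87 in Gsr-null samples, and was 8.43, 8.38, 8.79, 8.92 and 9.16 in WT samples. Its difference was 0.21 (SE 0.243, limma adjusted p = 0.948). It was -0.22 (SE 0.259) in the higher 3' minus 5' set and 0.68 (SE 0.289) in the lower set, and this interaction of -0.90 had an unadjusted p of 0.0425 and was not called (limma adjusted p = 0.419). The representative probe set differed by 0.10 (SE 0.202) in the higher set and by 0.30 (SE 0.226) in the lower set. After the genotype means were removed, the 2 Glul probe sets shared little of their remaining variation (Pearson's r 0.306 over 11 samples, a description), so the small differences between livers are not settled by either.

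Oat encodes ornithine aminotransferase, the mitochondrial enzyme that moves an amino group of ornithine to alpha-ketoglutarate and so forms glutamate. In mouse liver it lies in the same pericentral cells as Glul. Oat had log2 values of 11.61, 12.08, 11.89, 11.43, 11.59 and 11.69 in Gsr-null 1 to 6, against 10.75, 11.72, 11.40, 12.10 and 11.78 in WT 1 to 5. WT 1 stood lowest and WT 4 highest, so the WT samples enclosed all Gsr-null values. The log2 difference was 0.17 (SE 0.216, 95% interval -0.30 to 0.64, limma adjusted p = 0.965), and it was -0.033 without WT 1. By set it was 0.26 (SE 0.247) in the higher and -0.045 (SE 0.276) in the lower one, and the interaction was not called (limma adjusted p = 0.800).

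Slc1a2 encodes a glutamate transporter, best known from astrocytes, that pericentral hepatocytes also carry. It was above 4 in 4 of 11 samples and was not tested. Its log2 values were 3.54, 4.05, 4.27, 2.99, 3.79 and 3.49 in Gsr-null 1 to 6, against 3.42, 5.19, 3.62, 4.49 and 3.87 in WT 1 to 5. WT 2 and 4, the WT samples of the lower 3' minus 5' set, were the highest and Gsr-null 4 the lowest. The means were 3.43 in Gsr-null and 3.64 in WT livers of the higher set, and 3.95 in Gsr-null and 4.84 in WT livers of the lower set. The fit without a filter gave a difference of -0.43 with a 95% interval of -1.11 to 0.25.

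Gulo encodes L-gulonolactone oxidase, the last enzyme of vitamin C synthesis, which mice have and humans lack. Its log2 values were 10.42, 10.83, 11.17, 9.25, 9.32 and 9.98 in Gsr-null 1 to 6, against 9.69, 9.69, 10.28, 9.77 and 10.71 in WT 1 to 5. The Gsr-null samples spread to both sides of the WT samples, with 2 above the highest WT value and 2 below the lowest. The difference was 0.13 (SE 0.354, 95% interval -0.64 to 0.91, limma adjusted p = 0.991), with an SD of 0.788 among 6 Gsr-null and 0.455 among 5 WT livers. This spread followed the 3' minus 5' sets. In the higher set Gulo averaged 9.52 in Gsr-null and 10.23 in WT livers, a difference of -0.71 (SE 0.292). In the lower set it averaged 10.81 in Gsr-null and 9.73 in WT livers, a difference of 1.08 (SE 0.327). The interaction, higher minus lower set, was -1.79 in log2 units (SE 0.439, limma unadjusted p = 0.00205) but did not pass the adjustment over 9560 probe sets (adjusted p = 0.227). Of all tested probe sets, 0% passed it for the interaction, and 11.3% had an unadjusted p under 0.05. The set is a technical measure of the arrays, and what it marks in the livers was not tested.

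Lect2 encodes leukocyte cell-derived chemotaxin 2, a protein that hepatocytes secrete into blood and whose transcript depends on beta-catenin in mouse liver. Its log2 values were 10.31, 10.22, 10.50, 9.74, 9.86 and 10.05 in Gsr-null 1 to 6, against 9.23, 9.53, 9.63, 9.90 and 10.05 in WT 1 to 5. Gsr-null 1, 2 and 3 lay above every WT sample, Gsr-null 6 was level with WT 5, the highest WT sample, and Gsr-null 4 and 5 lay within the WT range. The log2 difference was 0.45 (SE 0.177, 95% interval 0.061 to 0.83), with an unadjusted p of 0.0268 that did not pass the adjustment (limma adjusted p = 0.501). Within the sets it was 0.25 (SE 0.210) in the higher and 0.63 (SE 0.235) in the lower one, and their difference of -0.38 was not called (limma adjusted p = 0.691).

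Gene starts of 6 of the 10 members were found in the RefSeq promoter table of assembly GRCm38.p6, namely Glul, Oat, Slc1a2, Lect2, Axin2 and Rnf43, in 7 windows that run from 250 bases before to 50 bases after the start. The windows of Oat (chr7:132576349-132576648, minus strand) and Lect2 (chr13:56548489-56548788, minus strand) are shown because these transcripts were the members that varied most closely with Rhbg and Gulo from liver to liver. The sequences read 5' to 3' along the gene, and capitals mark the core that TCF/LEF factors, the DNA-binding partners of beta-catenin, are known to prefer.
Oat: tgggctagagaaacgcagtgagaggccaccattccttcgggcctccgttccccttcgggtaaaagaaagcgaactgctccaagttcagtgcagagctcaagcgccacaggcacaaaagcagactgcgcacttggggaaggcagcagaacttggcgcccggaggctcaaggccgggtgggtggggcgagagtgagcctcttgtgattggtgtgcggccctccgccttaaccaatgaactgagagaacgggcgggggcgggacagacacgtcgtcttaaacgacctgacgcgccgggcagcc
Lect2: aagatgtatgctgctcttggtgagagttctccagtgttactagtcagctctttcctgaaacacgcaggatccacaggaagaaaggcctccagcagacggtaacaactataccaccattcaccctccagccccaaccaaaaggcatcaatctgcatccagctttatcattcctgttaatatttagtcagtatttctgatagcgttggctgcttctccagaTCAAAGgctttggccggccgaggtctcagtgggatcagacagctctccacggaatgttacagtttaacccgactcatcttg
The core was searched as CTTTGA on both strands, so that its reverse complement TCAAAG stands in capitals in Lect2, 31 bases before the start. The Oat window holds 0 matches. Slc1a2 has 2 matches, 77 and 206 bases before its start, and the windows of Glul, Axin2 and Rnf43 have 0. Of 32851 mouse promoter windows of the same length 16.0% hold the core, against 2 of 7 member windows. A TATA box, searched as TATAAA on both strands, is in 13.6% of all windows and in 0 of 7 member windows. A match is a description of these letters and not evidence of binding.

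The remaining members are classic Wnt targets. Axin2 is a scaffold of the complex that marks beta-catenin for destruction and is itself switched on by Wnt, which closes a feedback loop. Both Axin2 probe sets were far under the filter, one at 2.34 to 2.90 in Gsr-null and 2.33 to 2.92 in WT samples, the other at 1.64 to 2.24 in Gsr-null and 1.52 to 1.87 in WT samples. Lgr5, the R-spondin receptor that marks stem cells in the gut and pericentral cells in the liver, lay at 2.69 to 3.36 in Gsr-null and 2.72 to 3.31 in WT samples. For Axin2 and Lgr5 the groups overlapped and the level was not distinguished from the floor of the array, so no difference could be read. Without a filter the difference was 0.0023 (95% interval -0.27 to 0.27) and 0.16 (-0.11 to 0.42) on the Axin2 probe sets and 0.020 (-0.31 to 0.35) on that of Lgr5.

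Tbx3 is a T-box transcription factor that beta-catenin induces in liver. Its tested probe set had log2 values of 5.70, 6.81, 5.34, 4.85, 5.11 and 4.78 in Gsr-null 1 to 6, against 5.20, 5.37, 6.00, 5.20 and 4.71 in WT 1 to 5. Gsr-null 2 was the highest by a wide margin and the groups overlapped. The difference was 0.14 (SE 0.344, 95% interval -0.61 to 0.89, limma adjusted p = 0.990), and without Gsr-null 2 it was -0.14. The other Tbx3 probe set was at the floor, at 1.67 to 1.91 in Gsr-null and 1.49 to 1.93 in WT samples.

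Rnf43 is a membrane ubiquitin ligase that removes Frizzled receptors from the cell surface and is opposed by R-spondins. It had log2 values of 5.05, 4.97, 4.39, 4.51, 4.18 and 4.48 in Gsr-null 1 to 6, against 4.60, 4.69, 5.47, 4.24 and 4.33 in WT 1 to 5. WT 3 was the highest, as it was for Tbx3 among the WT samples, and the groups overlapped. The difference was -0.068 (SE 0.229, 95% interval -0.57 to 0.43, limma adjusted p = 0.999). Tbx3 and Rnf43 had the same sign in each set, at -0.39 (SE 0.383) and -0.41 (SE 0.291) in the higher set and at 0.66 (SE 0.428) and 0.34 (SE 0.326) in the lower set, and neither interaction was called (limma adjusted p = 0.53 and 0.56). The set itself, higher minus lower with genotype in the fit, was called for 6.37% of all tested probe sets and for 0 of the 8 members. For Rhbg the set term was -0.49 (limma adjusted p = 0.150).

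The 7 tested members were compared in pairs for how they varied from liver to liver. After each genotype's mean was removed, 18 of the 21 pairs had a positive Pearson's r over the 11 samples, with a median of 0.391. The adjustment over the 21 was passed by 2 pairs. The share of positive or high r among all gene pairs of the array was not computed, so these counts have no background beside them. Rhbg and Oat had r = 0.818 (permutation p = 0.001, adjusted p = 0.021) and Spearman's rho = 0.773 (permutation p = 0.00514, adjusted p = 0.0540). Their r was 0.855 without Gsr-null 2 and 3, the samples farthest from the Rhbg median. It was 0.856 within the higher 3' minus 5' set (n = 6) and 0.813 within the lower set (n = 5), without a test. Livers with more Rhbg than their genotype's mean tended to have more Oat, and among the 6 Gsr-null samples alone r was 0.834.

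Gulo and Lect2 had r = 0.814 (permutation p = 0.0035, adjusted p = 0.0368) and rho = 0.846 (permutation p = 0.00238, adjusted p = 0.04998). Without Gsr-null 3 and WT 5, the samples farthest from the Gulo median, r was 0.675, and it was 0.943 in the higher set (n = 6) and 0.453 in the lower set (n = 5), without a test. Tbx3 and Rnf43 (r = 0.721, permutation adjusted p = 0.0611) and Oat and Lect2 (r = 0.747, permutation adjusted p = 0.0611) missed the threshold. Rhbg and Glul, which both serve ammonia removal by the same cells, had r = 0.135 (permutation adjusted p = 0.735, rho 0.136). All genes of a sample come from the same array, and its RNA quality and floor are shared by both members of a pair.

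**Figure D3:**
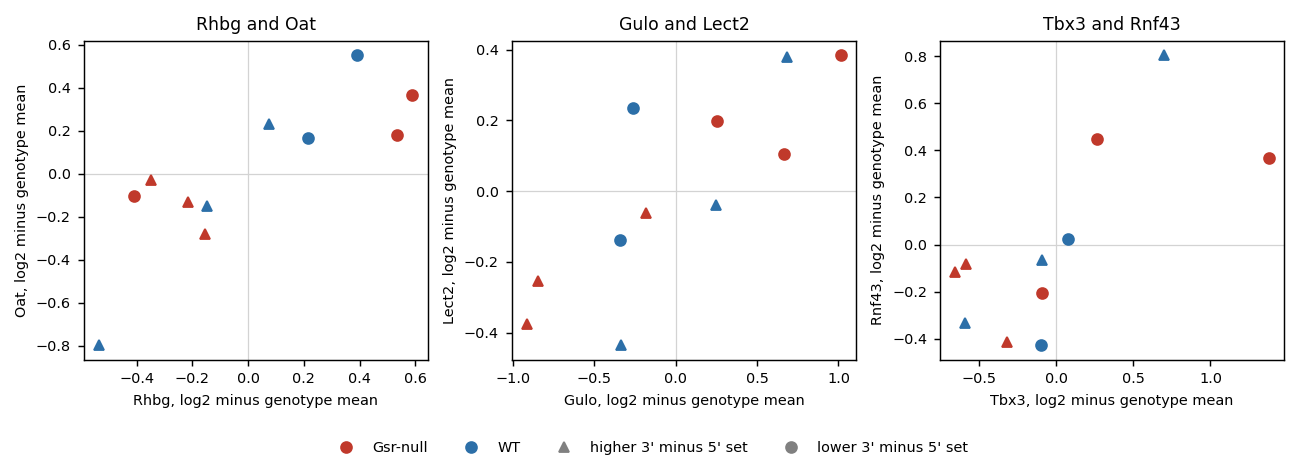
Deviation from the genotype mean (log2) of Rhbg against Oat, Gulo against Lect2 and Tbx3 against Rnf43, with 1 point per liver, Gsr-null in red and WT in blue, and triangles and circles for the higher and lower 3' minus 5' sets. The points of Rhbg and Oat (r = 0.818) lie along a rising line in both genotypes, and WT 1 is the lowest for both genes.

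Compared with 6021 other tested genes by the same measure, the 3 transcripts whose deviations were most like those of Rhbg were Nr2c2ap (r 0.958), Sars2 (r 0.933) and Pacsin3 (r 0.915). Like Rhbg, these were low on the arrays. Mean log2 levels in Gsr-null and WT livers were 5.03 and 4.69 for Nr2c2ap, 4.43 and 4.24 for Sars2, and 5.52 and 5.31 for Pacsin3. For Oat the 3 most alike were Tat, the tyrosine aminotransferase (r 0.841), Ddx27 (r 0.837) and Rhbg itself (r 0.818). For Glul they were Cxcl16 (r 0.885), Habp2 (r 0.882) and Ttc13 (r 0.828). For Gulo they were Fcna (r 0.966), Cela1 (r 0.956) and Pdia6 (r 0.953), and for Lect2 Ahsg (r 0.952), Avpr1a (r 0.903) and Nsun2 (r 0.866). These are the highest of many values over 11 samples and are given as a description. Besides Rhbg itself, none of these transcripts was called between the genotypes (limma adjusted p 0.525 to 0.999).

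Other genes of the pericentral zone were not called between the genotypes. Of 19 further pericentral genes on the array, 17 were tested, 0 were called, and 6 had a positive and 11 a negative difference. Their median was -0.11, against -0.032 over all tested genes. An unadjusted p under 0.05 was seen in 4 of the 17, with differences of either sign, against 8.36% of all tested probe sets. The smallest p belonged to Slc13a3, a dicarboxylate transporter, at 7.49 ± 0.647 (SD, n = 6) in Gsr-null and 6.64 ± 0.451 (SD, n = 5) in WT livers, a difference of 0.86 (limma adjusted p = 0.434). It was followed by the cytochrome P450 gene Cyp2c37 at 10.69 ± 0.671 in Gsr-null and 11.40 ± 0.145 in WT livers, a difference of -0.71 (limma adjusted p = 0.487). At the portal end of the lobule, 14 of 14 genes were tested, with 7 positive and 7 negative differences and a median of 0.0029. Of these, Aldh1b1, a mitochondrial aldehyde dehydrogenase, was called higher: it averaged 8.99 ± 0.275 (SD, n = 6) in Gsr-null and 7.79 ± 0.331 (SD, n = 5) in WT livers, a difference of 1.20 (SE 0.178, limma adjusted p = 0.013) with no overlap.

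The genes that handle ammonia, glutamate, glutamine and ornithine besides the members were tested in 17 of 22 cases, and 0 were called. Their differences were positive in 11 and negative in 6, with a median of 0.078. Aldh4a1, which makes glutamate from the breakdown of proline and ornithine, had 8.71 ± 0.331 in Gsr-null (SD, n = 6) and 7.90 ± 0.331 in WT livers (SD, n = 5), a difference of 0.81 (SE 0.191, limma adjusted p = 0.149). The mitochondrial ornithine carrier Slc25a15 had a difference of 0.28 (limma adjusted p = 0.509). The urea cycle enzymes Cps1 and Otc had differences of -0.087 and -0.054. Of 9 genes of vitamin C synthesis and transport besides Gulo, all 9 were tested, 0 were called, and their median was -0.016, with 4 positive and 5 negative. An unadjusted limma p under 0.05 was seen in 3 of the 9, with differences of either sign, against 8.36% of all tested probe sets. The negative one was Rgn at -0.28, which is also 1 of the 4 pericentral genes counted above. The ascorbate transporter Slc23a1 had 7.52 ± 0.426 in Gsr-null (SD, n = 6) and 6.75 ± 0.483 in WT livers (SD, n = 5), a difference of 0.77 (limma adjusted p = 0.345), and the UDP-glucose dehydrogenase Ugdh had a difference of 0.37 (limma adjusted p = 0.486).

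**Figure D4:**
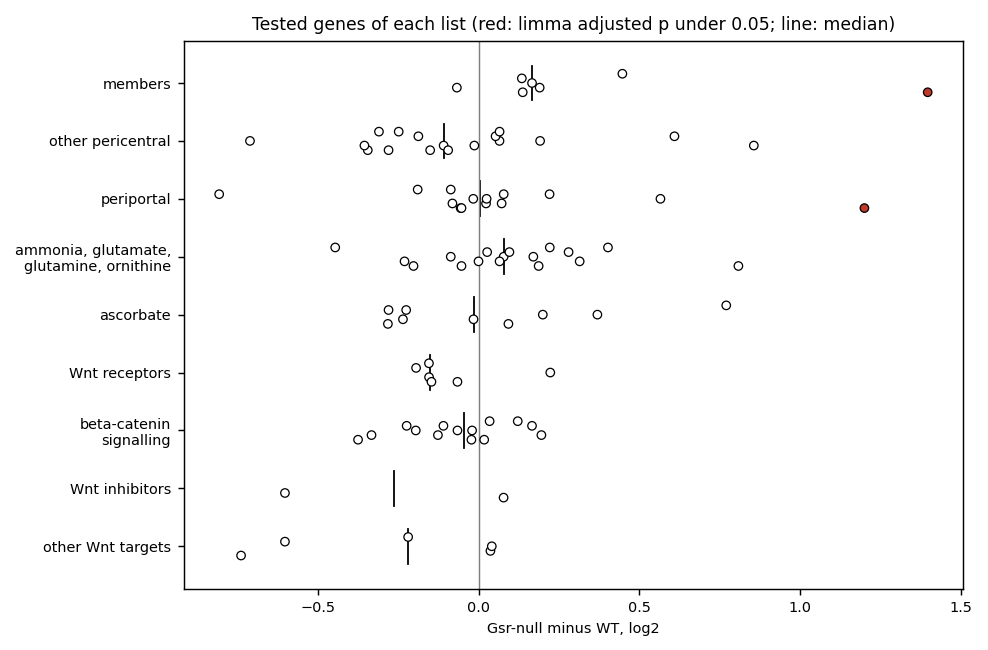
Gsr-null minus WT difference (horizontal axis, log2) of every tested gene among the members and in each list of related genes, with the list's median as a vertical line and called genes in red. Rhbg at 1.40 and the periportal gene Aldh1b1 at 1.20 are the called genes, and the other points lie on both sides of 0.

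The Wnt pathway above the members was mostly below the reach of the array. The list of Wnt ligands and R-spondins, which also holds the ligand-processing genes Porcn and Wls, had 20 genes on the array. Of these, 0 passed the filter and 19 were above 4 in 0 samples. Wnt2 and Wnt9b, ligands that central vein endothelium is known to release, were among the 19. Wnt2 stood at 2.54 in Gsr-null and 2.39 in WT livers, and Wnt9b at 1.76 in both. Rspo3, a listed marker of central vein endothelium, was not among the genes read on the array. Of 15 Wnt receptors 6 were tested and 0 were called, 1 positive and 5 negative, with a median of -0.15. The co-receptor Lrp6 had a difference of -0.15 (limma adjusted p = 0.912) and Ryk one of -0.15 (limma adjusted p = 0.867). Of 25 components of beta-catenin signalling 14 were tested and 0 were called, 5 positive and 9 negative, with a median of -0.044. Axin1, the constitutively expressed relative of Axin2, had a difference of -0.33 (limma adjusted p = 0.595) and the co-repressor Tle1 one of -0.38 (limma adjusted p = 0.755).

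Of 16 Wnt inhibitors 2 were tested and 0 were called. Notum, a secreted enzyme that inactivates Wnt ligands and is itself a Wnt target, averaged 4.25 ± 0.331 in Gsr-null (SD, n = 6) and 4.85 ± 0.341 in WT livers (SD, n = 5), a difference of -0.60 (SE 0.194, limma adjusted p = 0.338). Ctnnbip1, which keeps beta-catenin from TCF factors, had a difference of 0.077 (limma adjusted p = 0.983). A list of 16 Wnt targets outside the members overlaps the lists above and holds Notum again. In it 5 were tested and 0 were called, 2 positive and 3 negative, with a median of -0.22. Notum is 1 of the 3 negative genes. The cyclin Ccnd1 averaged 5.79 ± 0.684 in Gsr-null (SD, n = 6) and 6.53 ± 0.610 in WT livers (SD, n = 5), a difference of -0.74 (limma adjusted p = 0.620).

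Markers of other liver cells were read beside these results as mean log2 levels per sample. The 5 central vein endothelial markers on the array were above 4 in 0 samples, with means of 2.48 to 3.18 in Gsr-null and 2.51 to 2.96 in WT samples. Sinusoidal endothelial markers (7 on the array, 6 tested) averaged 5.68 to 6.75 in Gsr-null and 6.05 to 6.62 in WT samples. Kupffer cell and macrophage markers (7 on the array, 6 tested) averaged 6.12 to 7.42 in Gsr-null and 6.36 to 7.22 in WT samples. Stellate cell markers (7 on the array, 4 tested) averaged 5.07 to 6.09 in Gsr-null and 5.27 to 5.50 in WT samples. The 4 tested stellate genes had differences of 0.89 (Col1a2, limma adjusted p = 0.363), 0.87 (Col3a1, limma adjusted p = 0.736), -0.10 (Dcn) and -0.19 (Reln). Neutrophil markers (4 on the array, 0 tested) averaged 2.32 to 4.42 in Gsr-null and 2.32 to 2.58 in WT samples. Among Gsr-null samples S100a8 ran from 2.72 to 6.63 and S100a9 from 2.74 to 6.50. Mpo ran from 1.63 to 2.24 and Ngp from 1.98 to 2.90 in the same samples. Of all marker genes tested, 0 were called, and their part in the member values was not tested.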

How the data were processed

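Total RNA from liver was labelled with biotin and hybridised to single-colour Affymetrix arrays, per the labels' protocols. The deposited log2 values, 1 per probe set and sample, were made by the authors with GCRMA, per the submitters' processing notes. GCRMA models background from the bases of each probe, brings the arrays to a common distribution and combines the probes of a set. The sources used here name no version, and the log2 scale was read from the range, 0.329 to 14.7. Values near the floor depend most on the background correction, so folds of low genes can be understated or overstated. The depth of an array has no counterpart in read counts, and the number of arrays limits the precision.

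Of 22690 probe sets, 64 Affymetrix controls were left out, and 20380 had 1 gene symbol in the platform annotation. Of these, 20351 matched RefSeq (GRCm38.p6) by Entrez identifier. Probe sets above log2 4 in at least 5 samples were tested with limma 3.58.1 in R 4.3.3 (lmFit, eBayes), Gsr-null minus WT, with Benjamini-Hochberg adjustment over all 9560. The fit was tested on simulated data. Identifiers ending in _a_at or _s_at can match several transcripts, which applies to Glul, Slc1a2 and Lect2. Where a gene had several tested probe sets, the one with the highest mean stood for it. Correlations used 100000 permutations within genotype in Python 3.11.15, and figures matplotlib 3.10.9.

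The named genes are the 10 members, Gsr and the 3 transcripts most like Rhbg, Glul, Oat, Gulo and Lect2 by correlation. Added to these were up to 4 called genes of each list of related genes, or else the 2 with the smallest p. The lists of cell markers were not named by this rule. Cps1, Otc, Rhag, Rhcg, Wnt2, Wnt9b, Porcn, Wls and Rspo3 were named for their roles, after values were seen. Rgn was named after values were seen, as a gene that lists share. The stellate cell and neutrophil genes were also named after values were seen. The members and lists were chosen with earlier results of these data known. The alternatives changed the filter, the scaling, the variance model, the array weights, the threshold, the samples included and the block (replicate number, 3' minus 5' set). After the data were seen, the set term and the correlations within sets were added.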

Additional observations from a re-analysis of the deposited data

Results flagged for a closer look

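The probe set of Tbx3 that lay at the floor of the array was 1.93 in WT 5, apart from 1.49 to 1.62 in the other WT samples by Dixon's criterion. It was the 1 group flagged of 28 groups of values examined, where chance gives 1.4 flags. The tested Tbx3 probe set was lowest in WT 5 among the WT samples, at 4.71, and the value at the floor was used in no test.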

How the results depend on the processing

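Of 146 values of the 7 tested member genes under alternatives, 130 kept direction and side of the threshold, 7 lost the call and 9 changed sign. All 7 lost calls are those of Rhbg. Its difference was 1.47 (limma adjusted p = 0.0828) with the replicate block and 1.12 (adjusted p = 0.0585) without Gsr-null 2 and 3, and its adjusted p ranged from 0.00818 to 0.0828 over all alternatives. Among the tested members the sign changed for Gulo (-0.0633 with array weights, -0.286 without Gsr-null 2 and 3, -0.0685 to 0.316 leaving out each sample), Tbx3 (-0.185 without Gsr-null 2 and 3, -0.139 to 0.312 leaving out each), Oat (-0.0335 to 0.303) and Rnf43 (-0.175 to 0.133). None of these 4 genes was called under any alternative, and the cause was not tested. Of the 3 untested members, Axin2 changed sign in 8 of 20 values (-0.078 to 0.087) and Lgr5 in 7 of 19 (-0.084 to 0.092), so neither has a direction, and Slc1a2 in 0 of 19. The representative Gsr probe set was called throughout, at -1.93 to -1.77.

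Probe sets called higher numbered 16, and 7 with a filter at log2 6, 2 with the replicate block, 6 without Gsr-null 2 and 3, 7 at an adjusted p under 0.01, 25 under 0.1 and 9 to 21 leaving out each sample. Those called lower numbered 21, and in the same order 7, 1, 6 and 5, with 28 under 0.1 and 5 to 19 leaving out each sample. The block leaves out Gsr-null 6, and without that sample and with no block 21 were called higher and 16 lower. The cause of the lower counts was not tested. The member call was 0 with the stricter filter, where Rhbg, Tbx3 and Rnf43 were not tested, with the block, without Gsr-null 2 and 3 and under 0.01, and 0 to 1 leaving out each sample. Samples of the same number did not deviate together (r -0.243 to 0.036, 0 of 5 correlating best with its own number), so no pairing by number was seen. Whether livers of the same number were handled together was not tested. Scaling moved the median difference of all probe sets from -0.029 to 0.0071 at most. The pseudocount alternative does not apply to log values. Levels near 4, as for Slc1a2, or under it, as for Axin2 and Lgr5, limit what the arrays can show.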
